A study of Mus musculus with 16 samples.

Results

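Sele, Selp, Vcam1, Icam1, Icam2 and Ackr1, a set of 6 genes of leukocyte adhesion, were followed. They were chosen by name, as the rows of the count table whose Ensembl identifiers map to these symbols, and all 6 were found among the 50600 gene identifiers. All 6 also passed the minimum of 10 counts in total that left 22155 genes for testing. Epidermal cells came from the footpad of female C57/B6J mice, in 16 libraries that were 4 biological replicates of each of 4 groups. From 5 wk of age and for 3 wk, the mice ate either a purified diet poor in ligands of the aryl hydrocarbon receptor (AhR), labelled SYNTH and called the AhR-poor diet here, or that diet supplemented with indole-3-carbinol at 200 ppm, a plant compound from which AhR ligands form, called the I3C diet. The footpad then received PBS (50 μl) as vehicle or the same volume with papain (50 μg), a protease used as a model allergen, and cells were taken after 6 hr. Animals on the same diet shared a cage, so that diet and cage cannot be told apart, and the same holds for every diet difference given here.

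Leukocytes leave the blood in steps. Selectins on activated endothelium, E-selectin (Sele) and P-selectin (Selp), capture and roll them by binding sugars carried on proteins such as PSGL-1 (Selplg), and the immunoglobulin family members ICAM-1 (Icam1), ICAM-2 (Icam2) and VCAM-1 (Vcam1) then hold them through leukocyte integrins. Ackr1, the atypical chemokine receptor also called DARC, binds inflammatory chemokines without G protein signalling and is typical of the endothelium of venules and of red cells. The selectins, Vcam1 and Icam1 are known to be induced by cytokines such as TNF and IL-1 through NF-κB, Icam2 is carried by resting endothelium, and ICAM-1 can also be made by keratinocytes and leukocytes.

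The libraries held 22500821 to 51844375 counts. Expression is given as CPM, the counts of a gene per 1000000 counts of its library after TMM scaling, and 3 counts correspond to 0.0569 to 0.130 CPM. Keratinocyte markers such as Krt5 and Krt14 summed to between 38176 and 63498 CPM over the 16 libraries. Markers of other cells were present too, and differed between the groups. The 16 endothelial markers, which include Pecam1, Cdh5 and Kdr, summed to 3.30 to 4.84 CPM with vehicle and 4.20 to 5.52 CPM with papain on the I3C diet, and to 21.5 to 57.9 CPM and 43.2 to 100.9 CPM on the AhR-poor diet. Of these 16 genes, 14 were called higher on the AhR-poor diet with vehicle and 15 with papain. Erg was at 0 in all I3C papain libraries and Robo4 in all I3C vehicle libraries. Since the cells were sequenced in bulk, fewer cells of a type and less RNA per cell cannot be told apart.

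Positions are those of GENCODE M21 on GRCm38. Sele (ENSMUSG00000026582, chr1:164048234-164057677, plus strand) and Selp (ENSMUSG00000026580, chr1:164115264-164150026, plus strand) lie close together on chromosome 1, where Ackr1 (ENSMUSG00000037872, chr1:173331886-173333750, minus strand) also lies. Vcam1 (ENSMUSG00000027962, chr3:116109949-116129688) is on the minus strand, as is Icam2 (ENSMUSG00000001029, chr11:106377656-106388075), while Icam1 (ENSMUSG00000037405, chr9:21015985-21028817) is on the plus strand. Of the 1405 exonic bases of Ackr1, 361 are shared with Cadm3, a cell adhesion gene on the same strand, and reads there cannot be assigned to one gene. Icam1 shares 511 of 4360 exonic bases with the antisense gene Gm47079, which averaged 0.586 to 0.979 CPM in the groups. Selp shares 624 of 4413 bases with antisense genes that had at most 5 counts in a library, and Vcam1 61 of 8870 with one that had none, and no exonic base of Sele or Icam2 was shared.

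The 250 bases before the RefSeq transcription start are shown for the members with an entry in the RefSeq promoter table (GRCm38.p6). The windows are shown since Sele and Selp had the most alike levels. Ackr1 had the largest papain difference on the AhR-poor diet, and Icam1 none that passed the test. For Sele and Selp the RefSeq start is also the GENCODE start. The Icam1 window ends at 21015939, short of the GENCODE start at 21015985. The Ackr1 window, 173333504 to 173333753, lies almost wholly within the gene as GENCODE bounds it, with its end at 173333750. Capitals mark every match, on either strand, to TATAAA, to TGANTCA (the AP-1 motif), to GCGTG (the core of the AhR motif), to the textbook NF-κB consensus, or to GGANNTTCC. The last was added after the windows had been read, and overlaps the consensus in Sele.

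Sele (chr1:164047984-164048233, plus strand): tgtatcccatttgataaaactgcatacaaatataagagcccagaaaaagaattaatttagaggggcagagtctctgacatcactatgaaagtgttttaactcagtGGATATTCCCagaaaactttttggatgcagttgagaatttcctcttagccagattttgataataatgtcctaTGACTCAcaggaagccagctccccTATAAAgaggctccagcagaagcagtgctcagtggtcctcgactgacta

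Selp (chr1:164115014-164115263, plus strand): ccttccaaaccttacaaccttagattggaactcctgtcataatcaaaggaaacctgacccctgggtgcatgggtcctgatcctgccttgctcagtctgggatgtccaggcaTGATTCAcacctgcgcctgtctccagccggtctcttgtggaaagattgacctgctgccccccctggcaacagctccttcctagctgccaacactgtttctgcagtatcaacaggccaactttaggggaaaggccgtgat

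Icam1 (chr9:21015690-21015939, plus strand): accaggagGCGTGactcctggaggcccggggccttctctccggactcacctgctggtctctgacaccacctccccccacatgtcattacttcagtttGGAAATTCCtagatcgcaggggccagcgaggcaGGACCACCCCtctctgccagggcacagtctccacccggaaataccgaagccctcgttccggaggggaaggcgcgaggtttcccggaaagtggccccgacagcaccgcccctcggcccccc

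Ackr1 (chr1:173333504-173333753, minus strand): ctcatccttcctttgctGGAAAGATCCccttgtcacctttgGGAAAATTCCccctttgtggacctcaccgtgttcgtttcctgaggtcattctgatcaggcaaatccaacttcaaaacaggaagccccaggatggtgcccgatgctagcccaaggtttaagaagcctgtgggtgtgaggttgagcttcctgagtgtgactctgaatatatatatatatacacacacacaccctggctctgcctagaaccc

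The Sele window held TATAAA from base -49 (counted back from the start), TGANTCA from -73 and an NF-κB consensus match from -145. The Selp window held TGANTCA from -139 and none of the other motifs. In the Icam1 window GCGTG stood at -242, the consensus match at -120 and GGANNTTCC at -153. The Ackr1 window had consensus matches at -233 and -209, both within the gene as GENCODE bounds it. Of all 32851 windows of this length in the table, 12.4% held TATAAA, 6.75% TGANTCA, 28.2% GCGTG, 23.2% the NF-κB consensus and 3.59% GGANNTTCC. These matches describe the letters of the windows and were not tested as binding sites. Vcam1 and Icam2 are named without a window.

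Levels were compared between members per kilobase of exon. In the AhR-poor papain group Icam1 averaged 60.3 CPM per kb, Ackr1 2.45, Sele 2.01, Selp 1.77, Icam2 0.544 and Vcam1 0.370. In the I3C vehicle group Icam1 averaged 58.8 CPM per kb, and the others between 0.0280 for Ackr1 and 0.0781 for Icam2. Icam1 was thus the one member at a high level in every group, and the other 5 were rare transcripts in these cells.

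The first comparison was between the diets in footpads injected with vehicle alone. Sele was at 3.79, 2.25, 2.79 and 3.33 CPM in the 4 AhR-poor libraries (T100 to T103), and at 0, 0.357, 0.136 and 0.120 CPM in the I3C libraries (T108 to T111). Each AhR-poor library was above each I3C library, and the I3C diet left 23 counts in all against 461. Sele was 18.9-fold higher in the fit (log2 fold change 4.24, SE 0.50, adjusted p = 1.10e-04, edgeR's quasi-likelihood test with Benjamini-Hochberg adjustment over all genes tested). Selp, the selectin that endothelial cells and platelets also keep in storage granules, showed the same order, with 3.79, 2.70, 3.21 and 4.43 CPM on the AhR-poor diet and 0, 0.688, 0.109 and 0.0300 CPM on the I3C diet. Its log2 fold change was 4.001 (SE 0.63, adjusted p = 0.00179 by edgeR), and the call was lost without I3C library T110 (adjusted p = 0.0111, edgeR). Library T109 alone held 27 of the 32 Selp counts, 14 of the 23 Sele counts and 5 of the 6 Ackr1 counts of the I3C vehicle group, and without it the log2 fold changes were 6.11 for Selp, 5.08 for Sele and 5.03 for Ackr1.

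Sele and Selp were the 2 members called in this comparison, where a call required a log2 fold change beyond 1 at an adjusted p below 0.01, and 1.59% of all genes tested were called higher. The other 4 members did not pass. Ackr1 was at 0.654, 0.159, 0.544 and 0.322 CPM on the AhR-poor diet and at 0, 0.127, 0 and 0.0300 CPM on the I3C diet, so that the groups did not overlap, and missed the threshold at an adjusted p of 0.0162 (log2 fold change 3.24, SE 0.73, edgeR). Its 64 counts against 6 gave a ratio of 10.1 per sequenced read (exact 95% interval 4.39 to 28.5, counting error only). Vcam1 was at 0.582 to 1.11 CPM against 0.3002 to 0.546 CPM, again without overlap, with a log2 fold change of 0.91 (SE 0.32, adjusted p = 0.174, edgeR). Icam2 was at 0.238 to 0.572 CPM against 0.102 to 0.240 CPM, with a slight overlap and a log2 fold change of 1.21 (SE 0.46, adjusted p = 0.237, edgeR).

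Icam1 gave no difference by diet that passed the test. It was at 319, 110.2, 219 and 230 CPM (T100 to T103) on the AhR-poor diet and at 459, 161, 198 and 208 CPM (T108 to T111) on the I3C diet, with a log2 fold change of -0.22 (SE 0.32, adjusted p = 0.875, edgeR). The ranges overlapped widely, and the highest I3C library lay far above its group.

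Of the members, 4 did not overlap between diets with vehicle, each with an exact two-sided permutation p of 0.0286, the smallest that 4 against 4 libraries allow, and 6.45% of all genes were likewise higher without overlap. The median log2 fold change of the members was 2.22, beside -0.01 over all genes tested.

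**Figure D1:**
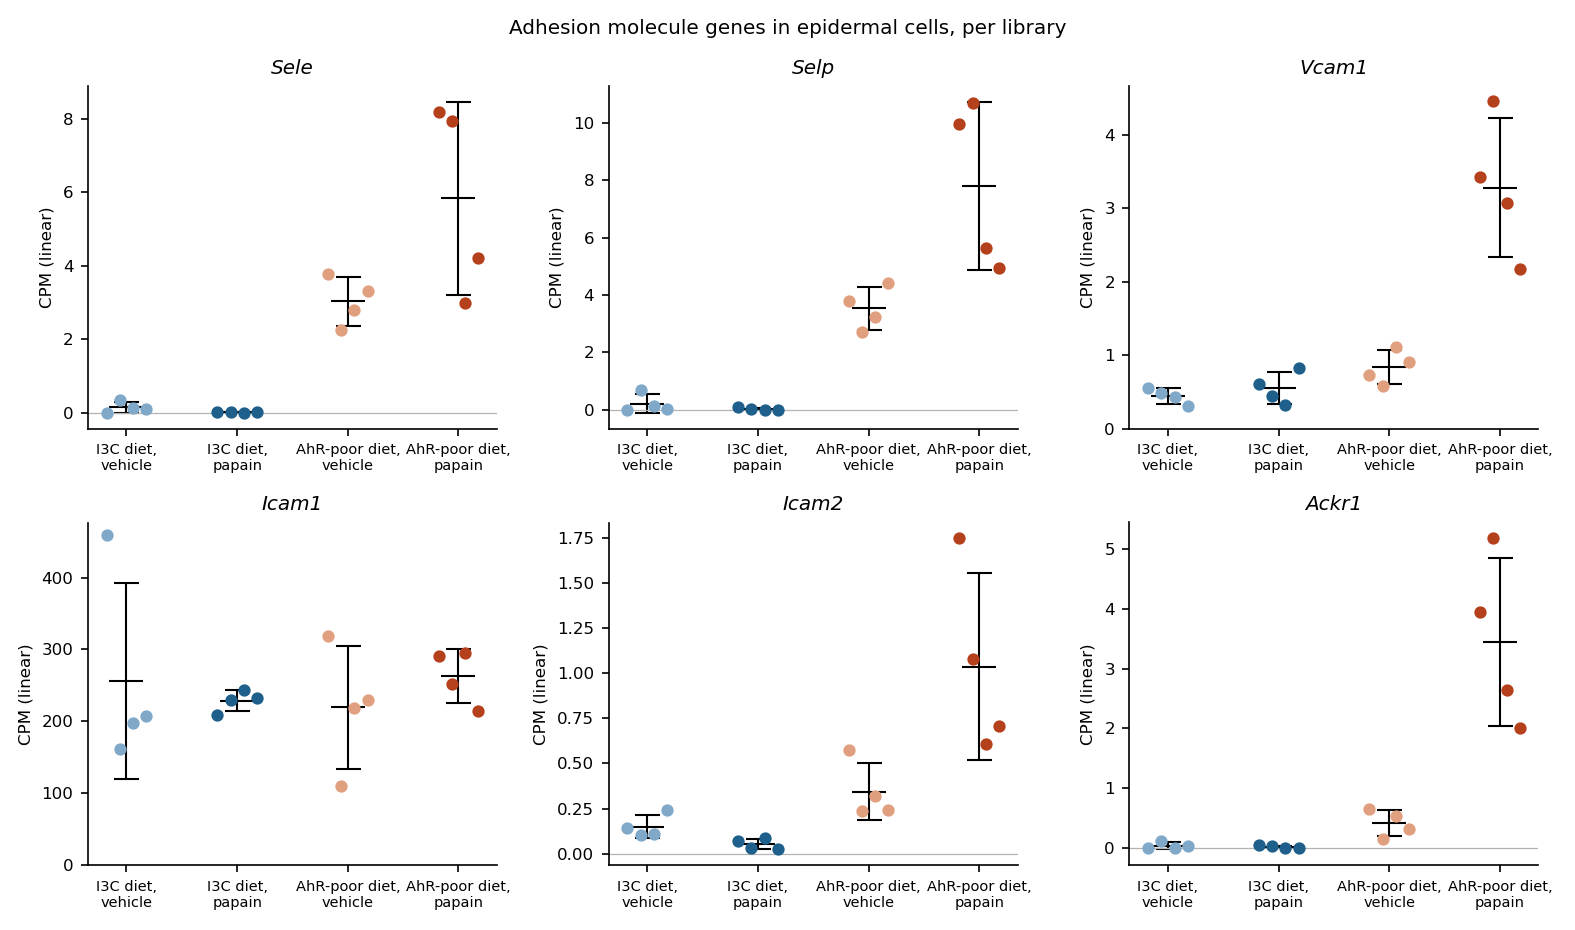
CPM (linear axis) of each gene in each of the 4 libraries of the 4 groups (points), with the mean and SD (bars). The AhR-poor papain libraries lie above both I3C groups for all genes but Icam1, whose 16 libraries range from 110.2 to 459 CPM.

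The diets were then compared after papain. Sele was at 8.20, 7.95, 2.99 and 4.21 CPM in the AhR-poor papain libraries (T104, T105, T107 and T112) and at 0.0244, 0.0321, 0 and 0.0249 CPM in the I3C papain libraries (T106, T113, T114 and T115). The I3C libraries held no more than 1 Sele read each, 3 in all against 976, a ratio of 313 with an exact 95% interval of 106.8 to 1521. Selp was at 9.95, 10.7, 5.63 and 4.92 CPM against 0.0731, 0.0321, 0 and 0 CPM, with 1279 counts against 4 and a ratio of 308 (interval 119.9 to 1131). Both passed the test (adjusted p = 4.54e-07 for Sele and 1.04e-05 for Selp, edgeR). The fitted folds of such genes depend on how the model treats near-empty libraries, and the intervals of the ratios cover counting error only, not the spread between libraries.

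Ackr1 was at 3.94, 5.18, 2.64 and 2.01 CPM on the AhR-poor diet and at 0.0487, 0.0321, 0 and 0 CPM on the I3C diet after papain. The 568 counts against 3 gave a ratio of 182 (exact 95% interval 62.05 to 886), and the adjusted p was 1.27e-06 (edgeR). Cadm3, with which it shares exonic bases, moved in the same way, from a mean of 0.191 CPM in the I3C papain group to 12.35 CPM in the AhR-poor papain group (log2 fold change 6.00, SE 0.45), and the share of Ackr1 reads that belong to it was not tested.

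Vcam1 and Icam2 also passed after papain. Vcam1, the ligand of the integrin α4β1, was at 3.42, 4.46, 3.07 and 2.18 CPM on the AhR-poor diet and at 0.609, 0.449, 0.314 and 0.821 CPM on the I3C diet. Every AhR-poor library was above every I3C library, and the log2 fold change was 2.56 (SE 0.30, adjusted p = 8.21e-06, edgeR). Icam2, the ICAM of resting endothelium, was at 1.75, 1.08, 0.606 and 0.707 CPM against 0.0731, 0.0321, 0.0856 and 0.0249 CPM. Its 168 counts against 8 gave a ratio of 20.2 (exact 95% interval 10.03 to 47.6) with an adjusted p of 9.18e-06 (edgeR).

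Icam1 again did not pass (291, 252, 295 and 214 CPM against 209, 230, 244 and 232 CPM, log2 fold change 0.20, SE 0.32, adjusted p = 0.736, edgeR). In all, 5 of the 6 members were called higher on the AhR-poor diet with papain, where 7.15% of all genes tested were, and the same 5 did not overlap (exact permutation p = 0.0286 each), as did 12.5% of all genes. The median log2 fold change of the 6 members was 5.70, beside 0.01 over all genes.

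**Figure D2:**
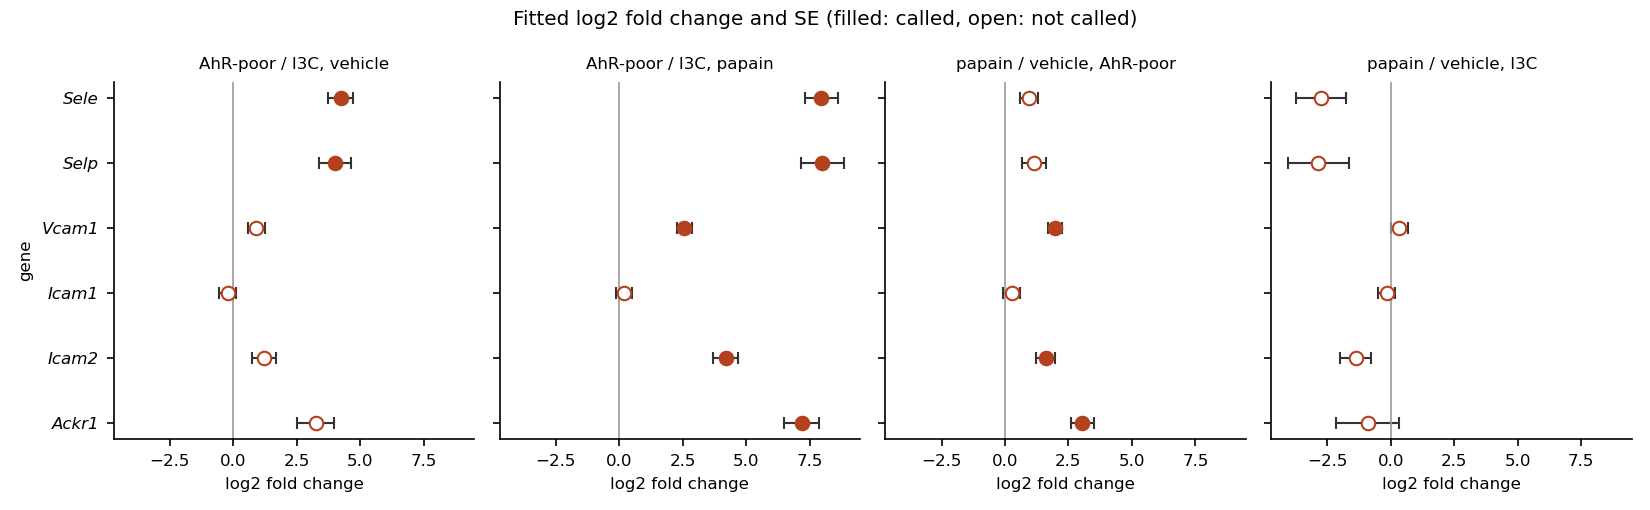
Fitted log2 fold change (points) and SE (bars) of the 6 genes in the 4 comparisons, filled where called. Sele and Selp are filled in both diet comparisons, Vcam1, Icam2 and Ackr1 with papain and in the papain response on the AhR-poor diet, and no gene is filled in the papain response on the I3C diet.

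The response to papain itself was then read within each diet. These comparisons share their libraries with the diet comparisons above, so they are not independent of them. On the AhR-poor diet Ackr1, Vcam1 and Icam2 rose. Ackr1 went from a mean of 0.420 ± 0.222 CPM (SD, n = 4) to 3.44 ± 1.41 CPM, an increase of 3.04 on the log2 scale (SE 0.45, adjusted p = 4.96e-05, edgeR), and its highest vehicle library was at 0.654 CPM and its lowest papain library at 2.01 CPM. Cadm3 rose by 2.85 (SE 0.35). Vcam1 went from 0.836 ± 0.229 to 3.28 ± 0.943 CPM (log2 fold change 1.97, SE 0.29, adjusted p = 3.08e-05, edgeR) and Icam2 from 0.343 ± 0.157 to 1.04 ± 0.517 CPM (1.61, SE 0.38, adjusted p = 0.00261, edgeR). The Icam2 call was lost without vehicle library T101 (adjusted p = 0.0126) or T103 (0.0106) or papain library T104 (0.0202).

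The 2 selectins differed less. Sele averaged 3.04 ± 0.664 CPM with vehicle and 5.84 ± 2.63 CPM with papain, with papain library T107 inside the vehicle range (log2 fold change 0.95, SE 0.36, adjusted p = 0.0524, edgeR, exact permutation p = 0.0857). Selp averaged 3.53 ± 0.743 and 7.80 ± 2.95 CPM without overlap (1.15, SE 0.48, adjusted p = 0.0800, edgeR, exact permutation p = 0.0286), and was called when only the 8 libraries of this comparison were fitted (adjusted p = 0.00567) or without I3C library T109 (0.00781). In Sele and Selp alike, papain libraries T104 and T105 were high and T107 and T112 low. The endothelial marker sums of these 4 libraries were 86.9, 100.9, 43.2 and 57.8 CPM, respectively. Icam1 averaged 219 ± 85.7 and 263 ± 38.0 CPM (log2 fold change 0.26, SE 0.32, adjusted p = 0.593, edgeR). Thus 3 members were called where 6.04% of all genes tested were called higher, and 4 did not overlap, as did 17.0% of all genes.

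On the I3C diet edgeR called no member between papain and vehicle, while 8.98% of all genes tested were called in either direction. At an unadjusted p below 0.05 by edgeR there were 3 members, all lower with papain, beside 9588 of the 22155 genes tested. DESeq2 called 1 member, Sele. Sele had 23 counts with vehicle and 3 with papain (log2 fold change -2.77, SE 0.98, adjusted p = 0.0360 by edgeR and 0.00661 by DESeq2), and the libraries overlapped because vehicle library T108 had none. Selp had 32 and 4 counts, of which T109 held 27 (log2 fold change -2.86, SE 1.20, adjusted p = 0.0799, edgeR), and without that library the log2 fold change was -0.75. Icam2 was at 0.144, 0.102, 0.109 and 0.240 CPM with vehicle and at 0.0249 to 0.0856 CPM with papain, without overlap (log2 fold change -1.38, SE 0.62, adjusted p = 0.0915, edgeR). It was the 1 member whose groups did not overlap, as held for 33.4% of all genes in either direction. Ackr1 had 6 and 3 counts, too few for a fold. Vcam1 averaged 0.441 ± 0.104 and 0.548 ± 0.218 CPM, and Icam1 257 ± 137 and 229 ± 14.7 CPM, neither with a difference that passed.

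Whether papain acted differently on the 2 diets was tested as an interaction. The log2 fold change of Sele with papain was higher on the AhR-poor diet by 3.72 (SE 1.04, unadjusted p = 0.00224, adjusted p = 0.139, edgeR). That of Selp was higher by 4.01 (SE 1.28), of Ackr1 by 3.95 (SE 1.41) and of Icam2 by 2.99 (SE 0.72, adjusted p = 0.0775, edgeR). For Vcam1 the difference was 1.65 (SE 0.44, adjusted p = 0.113, edgeR) and for Icam1 0.43 (SE 0.46). In every member but Vcam1 the log2 fold changes on the 2 diets had opposite signs. On the AhR-poor and the I3C diet they were 0.95 and -2.77 for Sele and 1.15 and -2.86 for Selp. Ackr1 was at 3.04 and -0.92, and Icam2 at 1.61 and -1.38. The I3C values of these 4 genes rest on few counts. None of the 6 was called, although 5 had an unadjusted p below 0.05, as had 2987 of the 22155 genes tested. DESeq2 called Sele at its threshold (adjusted p = 0.009999). Without library T109 the differences were 2.88 for Sele, 1.90 for Selp and 2.17 for Ackr1. Over all genes 0.0181% were called. That papain raised Ackr1, Vcam1 or Icam2 more on one diet than on the other is therefore not shown at this threshold.

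The order of the groups follows from these values. For Sele the mean fell from the AhR-poor papain group (5.84 CPM) to the AhR-poor vehicle group (3.04), the I3C vehicle group (0.153) and the I3C papain group (0.0203), and the neighbours on the same diet overlapped. Selp (7.80, 3.53, 0.207 and 0.0263 CPM) and Ackr1 (3.44, 0.420, 0.0394 and 0.0202 CPM) kept this order, with the I3C groups overlapping. Icam2 did so too (1.04, 0.343, 0.149 and 0.0539 CPM), with overlap between the vehicle groups of both diets. Vcam1 differed in that the I3C papain group (0.548 CPM) stood above the I3C vehicle group (0.441 CPM), and both the I3C groups and the I3C papain and AhR-poor vehicle groups overlapped. For Icam1 all neighbours overlapped.

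Across the 16 libraries Sele and Selp followed each other most closely. The Pearson correlation of log2(CPM + 0.5) was 0.99 between them, and among the 13026 genes with a mean of at least 1 CPM each was the other's nearest gene. Next came Pecam1 and Podxl for Sele (0.98 each) and Clec3b and Pi16 for Selp (0.98 each). The genes nearest to Vcam1 were Glipr2, Clec5a and Ccl9 (0.97 each), those nearest to Icam1 were Cxcl16, at 0.92, Slc7a6os and Zfand5 (0.91 each). Icam2 and Ackr1 averaged under 1 CPM and were not searched. Ackr1 correlated at 0.97 with Vcam1 and at 0.87 with Sele. Icam1 correlated at 0.05 with Sele and at 0.26 with Vcam1. The points share the 4 groups and the libraries, so that these values largely describe the group means.

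The endothelial markers moved with the members. Their summed level correlated at 0.98 with Sele, 0.97 with Selp, 0.89 with Ackr1, 0.88 with Icam2, 0.84 with Vcam1 and 0.09 with Icam1 over the same 16 libraries. The 5 lymphatic endothelial markers (Prox1, Lyve1, Flt4, Mmrn1 and Reln) were all called higher on the AhR-poor diet, with vehicle (median log2 fold change 3.92) and with papain (4.98). Of the 10 fibroblast markers 8 were called in each, of 9 pericyte and smooth muscle markers 1 and 5, of 9 monocyte and macrophage markers 5 and 9, and of 4 platelet markers with enough reads 1 and 2, all by edgeR. Of 5 T cell markers edgeR called 0 and 2, and DESeq2 0 and 4, with 1 at an unadjusted p below 0.05 with vehicle. Keratinocyte markers (8) and Langerhans cell markers (5) were called in neither by edgeR, with 1 and 4 at an unadjusted p below 0.05 with vehicle and 3 and 4 with papain, and DESeq2 called 4 of the Langerhans cell markers in each. The 6 red cell markers, genes of a cell type known to carry Ackr1, summed to 0.258 to 3.07 CPM and 0.400 to 17.2 CPM in the I3C groups and to 73.4 to 155 CPM and 267 to 1254 CPM in the AhR-poor vehicle and papain groups. Platelets also carry P-selectin. Of the 9 platelet markers, Pf4 was called higher on the AhR-poor diet with vehicle (0.712 against 0.0694 CPM on average, log2 fold change 3.29) and with papain (5.52), and Ppbp with papain (7.16). The most abundant, Itga2b and Gp1bb, were called in neither diet comparison. Their log2 fold changes were -0.25 and -0.01 with vehicle and -0.29 and 0.42 with papain. Gp9, Gp6 and Treml1 were at 0 in all vehicle libraries of both diets. The part of platelets in the Selp level was not tested, nor was that of red cells in the Ackr1 level.

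When the mean log2 level of the endothelial markers was added to the model, edgeR called no member in any comparison. Under this covariate the log2 fold change of Sele between diets was 2.59 with vehicle (adjusted p = 0.512, edgeR) and 5.21 with papain (0.293), and that of Ackr1 between papain and vehicle on the AhR-poor diet was 1.97 (0.0224). Vcam1 was at 1.71 in that last comparison and no longer passed (adjusted p = 0.0134, edgeR), Icam2 was at 0.49 and Sele at -0.14. At an unadjusted p below 0.05 there were 2 members between diets with vehicle (Sele and Selp), 3 between diets with papain (with Ackr1), 2 between papain and vehicle on the AhR-poor diet (Ackr1 and Vcam1), 3 on the I3C diet (Icam2, Sele and Selp) and 5 in the interaction of diet and papain (all but Icam1). The share of all genes below that p under the covariate was not computed. The covariate itself differed between diets without overlap. A change of the members with diet and one with endothelial marker level can therefore not be told apart here.

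Each member was also expressed as a percentage of the summed endothelial markers in the same library, as a description. Ackr1 made up 0.570 to 2.17% of that sum in the AhR-poor vehicle libraries and 3.48 to 6.11% in the papain libraries, a 3.59-fold higher mean without overlap. Sele went from 10.3 ± 3.92% to 7.88 ± 1.11% and Selp from 12.4 ± 6.01% to 10.9 ± 1.88%, with overlap. Relative to the endothelial markers, Ackr1 was thus the member whose papain and vehicle libraries on the AhR-poor diet stood apart. Reads in the bases that Ackr1 shares with Cadm3, which also rose with papain on this diet, were not taken out of this ratio. The red cell marker sum rose here as well, from 73.4 to 155 CPM with vehicle to 267 to 1254 CPM with papain. Vcam1 was at 3.01 ± 1.57% and 4.81 ± 1.56% there, and at 11.3 ± 2.90% and 10.9 ± 4.01% on the I3C diet, higher on the I3C diet in both treatments without overlap. The I3C values were 21.1 ± 14.2% and 28.7 ± 17.6% when Flt1 was left out of the sum. Relative to the fibroblast marker sum the direction turned, with means of 0.187% on the AhR-poor and 0.118% on the I3C diet with vehicle, where the libraries overlapped, and of 0.316% and 0.146% with papain, where they did not. That sum rests on the I3C diet mostly on Postn (283 CPM with vehicle and 235 CPM with papain) and Thy1 (80.5 and 157 CPM). Neither gene was called between diets, and a ratio without them was not computed.

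Between diets after papain, Sele (7.88% against 0.387%), Selp (10.9% against 0.503%) and Ackr1 (4.82% against 0.383%) were higher on the AhR-poor diet without overlap. With vehicle they overlapped, by ratios of 2.87, 2.79 and 1.51. Without I3C vehicle library T109 these ratios were 4.43, 10.4 and 4.42, and Sele and Selp no longer overlapped. Without I3C papain library T106 the ratios after papain were 56.2 for Selp and 24.8 for Ackr1, where they had been 21.7 and 12.6. The I3C sums rest on few counts and on Flt1, which averaged 1.38 and 2.86 CPM there and was not called between diets. Without Flt1 the ratios between diets after papain were 8.57 for Sele, 12.4 for Selp and 6.83 for Ackr1, still without overlap.

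**Figure D3:**
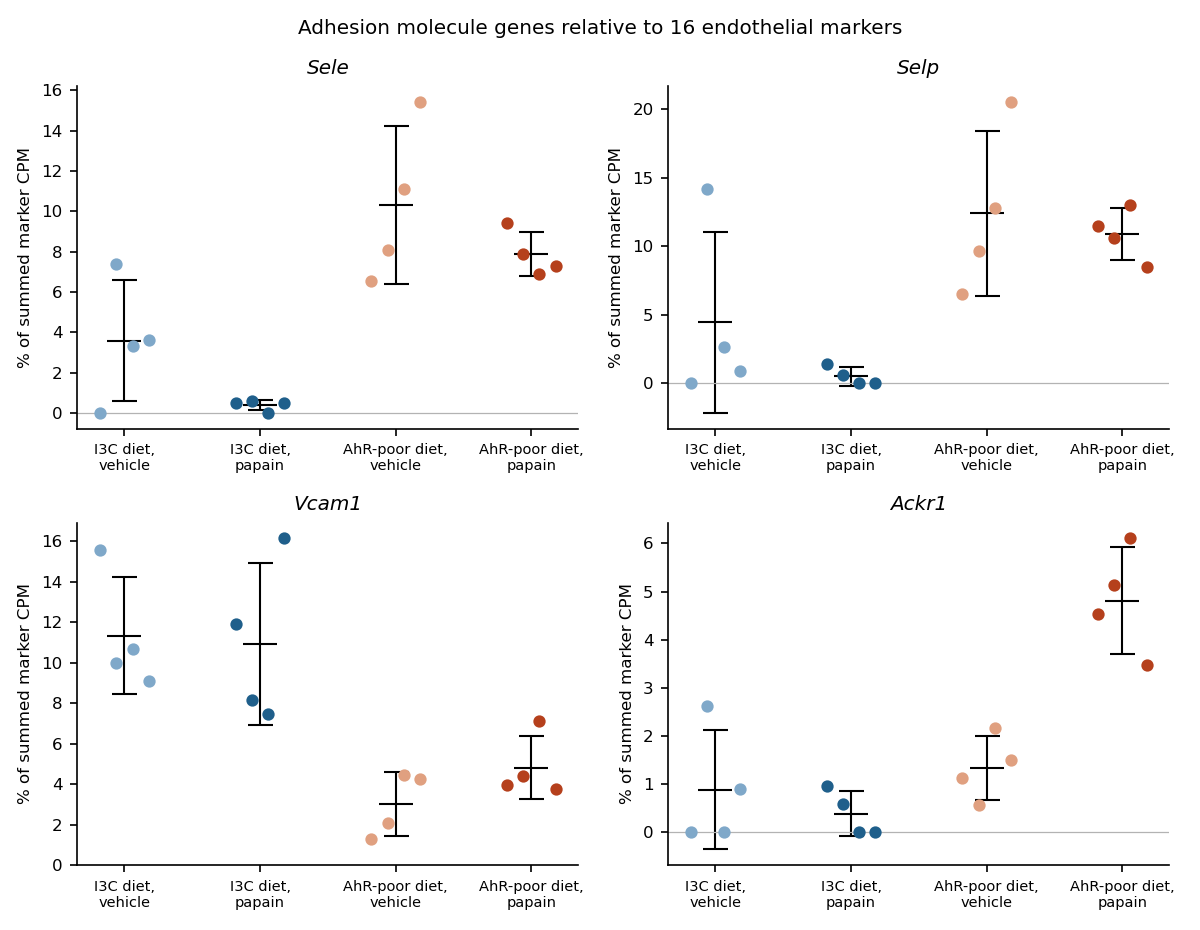
Level of 4 genes as a percentage of the summed CPM of 16 endothelial markers in the same library (linear axis), with points for the 4 libraries of each group and bars for the mean and SD. The AhR-poor papain libraries stand above the AhR-poor vehicle libraries for Ackr1, and overlap with them for Sele, Selp and Vcam1.

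The partners of these molecules were read from lists of the adhesion pathway. Of all genes tested, 1.59% were called higher between diets with vehicle and 7.15% with papain. In the papain response 6.04% were called higher on the AhR-poor diet and 8.98% in either direction on the I3C diet. Of the 13 counter-receptors on leukocytes and other cells, 9 were called higher on the AhR-poor diet with papain (median log2 fold change of the list 1.77) and 1 with vehicle (0.77). PSGL-1 (Selplg), the chief selectin ligand, averaged 25.3 CPM in the AhR-poor papain group and 2.94 CPM in the I3C papain group (log2 fold change 3.10), and rose with papain on the AhR-poor diet by 1.99. Itgb2, the β chain shared by the integrins that bind ICAM-1 and ICAM-2, averaged 30.1 against 2.23 CPM (log2 fold change 3.75). Its α chains Itgal (2.12), Itgam (1.77) and Itgax (1.72) and the VCAM-1 receptor chain Itga4 (2.14) were called as well. Between diets with vehicle edgeR called the integrin chain Itga9 (3.96), and DESeq2 also called Itgax and Itgb2 (1.43 and 1.62 by edgeR), with 6 of the 13 at an unadjusted p below 0.05. Cd44 and Cd24a, which keratinocytes also express, were called in the papain response on the I3C diet (1.11 and 1.37). On the AhR-poor diet they were at 0.78 and 0.95, under the fold minimum (adjusted p = 1.24e-05 and 1.29e-06, edgeR, groups without overlap). The neutrophil markers moved alongside and summed to 50.9 to 284 CPM in the AhR-poor papain libraries, 20.5 to 29.6 CPM in the I3C papain libraries and at most 2.89 CPM with vehicle. The I3C papain sum was mostly 1 gene, Cxcr2, at 24.2 CPM on average, while Csf3r was at 0.739 and Trem1 at 0.575 CPM. In the papain response on the I3C diet edgeR called 1 of the 8 neutrophil markers and DESeq2 4. The part of leukocyte number in these levels was not tested.

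Among the 11 enzymes that build the sugar ligands of selectins, edgeR called none between diets with vehicle (2 at an unadjusted p below 0.05, none by DESeq2) and 1 with papain, the fucosyltransferase Fut4, at 0.309 against 0.00609 CPM on average. St3gal4, a sialyltransferase of selectin ligands, rose with papain on both diets, by 2.32 on the AhR-poor and 2.23 on the I3C diet, and so did the sulfotransferase Chst2, by 1.12 and 1.10. Ackr2, an atypical receptor that degrades chemokines, rose with papain on the I3C diet by 1.04, and was at 0.96 on the AhR-poor diet, under the fold minimum (adjusted p = 0.00520, edgeR, groups without overlap). Icam4, Icam5, Ackr3 and Ackr4 were not called in any of the 4 comparisons.

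Of the 16 genes of vessel wall adhesion and junctions 14 were tested, and 5 were called higher on the AhR-poor diet with vehicle and 7 with papain. Madcam1 and Glycam1, ligands of the vessels of gut and lymph node, had too few reads. The junction proteins Cdh5 (log2 fold change 4.16 with vehicle and 5.46 with papain) and Jam2 (4.30 and 6.14) and the sialomucins Podxl (3.99 and 4.24) and Cd34 (1.77 and 3.54) passed in both. F11r, Nectin2, Cd47 and Cd99l2, which epithelial cells also express, were called in none of the 4 comparisons. Stab1 (1.46 and 2.06) and the nectin-like Pvr (1.10 and 1.18) rose with papain on both diets.

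Of the 10 cytokines known to induce endothelial adhesion molecules, 5 rose with papain on the AhR-poor diet and 2 on the I3C diet. Il1b went from 2.57 to 233 CPM on the AhR-poor diet (log2 fold change 6.50) and from 0.378 to 6.15 CPM on the I3C diet (4.04), and Tnf from 12.2 to 37.0 CPM (1.61) and from 6.98 to 16.6 CPM (1.25). Il1a (2.35), oncostatin M (Osm, 5.68) and Il13 (1.19) rose on the AhR-poor diet and were not called on the I3C diet (0.44, 1.89 and 0.33). The interaction was not called by edgeR for any gene of the list (3 at an unadjusted p below 0.05, and Il6 by DESeq2). Il33 averaged between 22.7 and 24.7 CPM in the 4 groups. Between diets with vehicle edgeR called no cytokine of the list (3 at an unadjusted p below 0.05, and Il1b by DESeq2), and with papain it called 4, Tnf, Il1b, Osm and Il6.

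Their receptors differed in another way. Il4ra (1.80 on the AhR-poor and 1.95 on the I3C diet), Ifngr1 (1.46 and 1.58) and Osmr (1.01 and 1.21) rose with papain on both diets, and 5 of 12 receptors were called on each. Between diets with papain 2 were called, Tnfrsf1b (2.65) and the IL-33 receptor Il1rl1 (7.55), both also carried by leukocytes. In the NF-κB pathway 2 of 15 genes were called between diets with papain, Nfkbie (2.10) and Traf1 (2.44), where 7.15% of all genes were called higher. With vehicle there were none by edgeR or DESeq2, nor at an unadjusted p below 0.05. The widely expressed Nfkbia averaged 713, 700, 711 and 956 CPM in the I3C vehicle, I3C papain, AhR-poor vehicle and AhR-poor papain groups and was not called in any comparison. Irf1 fell with papain on the I3C diet, by 1.90.

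The chemokines that Ackr1 binds were the list that moved as a whole on the AhR-poor diet. The lists were chosen with earlier results of these data known. Cxcl1, Cxcl3, Cxcl5 and Ccl2 are reported in the paper as higher on this diet with papain, from the same libraries. The count of 8 is therefore not independent support. All 8 rose with papain on that diet (median log2 fold change 3.30) and all 8 were higher there than on the I3C diet after papain (3.91), whereas edgeR called none of the 8 in the papain response on the I3C diet (0.54), where 4 had an unadjusted p below 0.05 and DESeq2 called Ccl5 and Cxcl3. The neutrophil chemokines Cxcl1 (63.6 to 132 CPM on the AhR-poor diet), Cxcl2 (17.1 to 163 CPM), Cxcl3 (0.106 to 17.7 CPM) and Cxcl5 (0.0324 to 20.5 CPM) rose, and Ccl2, which attracts monocytes, went from 8.91 to 37.2 CPM. The I3C papain group averaged 54.1, 11.7, 0.294, 0.0445 and 6.92 CPM for these 5. Between diets with vehicle edgeR called Ccl11 (eotaxin), at 0.799 against 0.0293 CPM (log2 fold change 4.68), and DESeq2 also called Cxcl2 (1.65 by edgeR), with 3 of the 8 at an unadjusted p below 0.05. No interaction of diet and papain was called by edgeR for any of the 8, although 7 had an unadjusted p below 0.05 and DESeq2 called Ccl2, Ccl7 and Cxcl5.

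**Figure D4:**
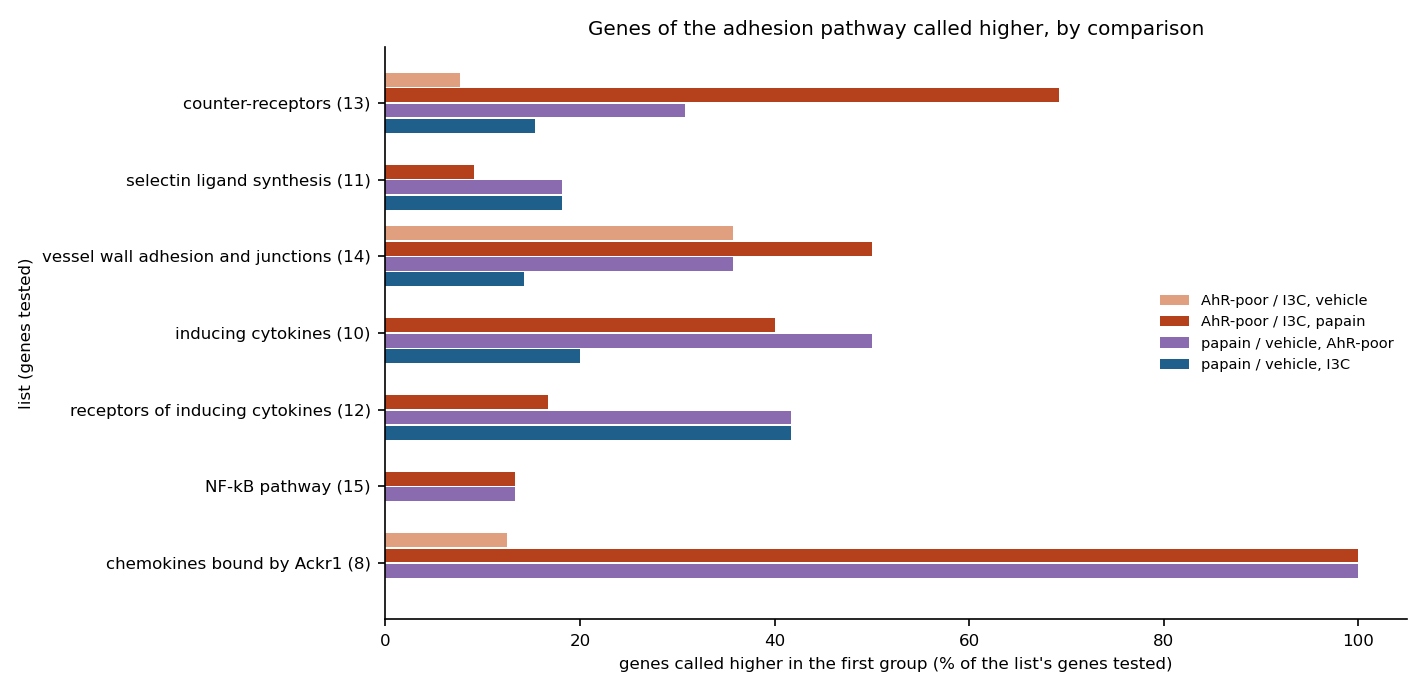
Percentage of the genes tested in each of 7 adhesion pathway lists that were called higher in the first-named group, for the 4 comparisons (bars), with the number tested in brackets. All 8 chemokines bound by Ackr1 were called in the diet comparison with papain and in the papain response on the AhR-poor diet. Of 13 counter-receptors 9 were called in the former. The lists were chosen with earlier results of these data known.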

How the data were processed

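RNA from footpad epidermal cells was sequenced in 16 libraries (TruSeq Stranded mRNA kit). The authors aligned reads with STAR to mm10 and deposited raw counts per Ensembl gene and library, without normalization. The counting tool, annotation release and strand setting are not given in the sources used here, so reads of overlapping genes may have been split in an unknown way. Of 50600 identifiers, 50376 matched a symbol in GENCODE M21. Groups came from the diet and treatment labels. The labels do not tell which of the 3 sequencing units gave a library, and diet was confounded with cage, so neither entered a model.

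A total of 10 counts or more was required of a gene (22155 passed). Libraries were scaled with TMM factors (0.937 to 1.07) and fitted with 1 mean per group in edgeR 4.0.16 (R 4.3.3, robust quasi-likelihood test). Calls needed a log2 fold change beyond 1 and an adjusted p (Benjamini-Hochberg) below 0.01. At an unadjusted p below 0.05 edgeR had 2764 genes between diets with vehicle and 7089 between diets with papain. In the papain response there were 9301 on the AhR-poor diet and 9588 on the I3C diet, and 2987 in the interaction. Two-sided exact permutation tests compared log2(CPM + 0.5) of 4 libraries with 4. Exact binomial intervals (95%) of ratios of summed counts, scaled by the summed library sizes, cover counting error only. Totals of 22500821 to 51844375 counts put 3 counts at 0.0569 to 0.130 CPM. No pair of replicates was close to sampling noise (chi-square per degree of freedom of 9.43 or more). The model was also run on simulated counts. Changes were placed there in genes that were not near-empty on the I3C diet, and their recovery was not required in the interaction. The run therefore does not bear on members with near-empty I3C libraries.

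The 6 genes and all lists were chosen with earlier results of these data known. All 6 are named. From 8 pathway lists and 12 cell type lists, up to 4 genes of the highest mean CPM are named, and others whose role is explained. The results of 1 listed gene are not reported here. Genes most like a member were the 3 with the highest Pearson correlation of log2(CPM + 0.5) over the libraries. Motif and promoter windows come from RefSeq. Alternatives in the fit were RLE or no scaling factors, DESeq2 1.42.0, the 8 libraries of a comparison alone, filterByExpr, a minimum of 10 counts in each library or of 1 count in all, a threshold of 0.05 or without a fold minimum, the endothelial markers as a covariate, each library left out in turn, and 2 other marker sums as denominators. A further sum, without Flt1, and ratios to the sum without single libraries were chosen after seeing the data.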

Additional observations from a re-analysis of the deposited data

Results flagged for a closer look

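Dixon's 95% criterion for 4 samples was applied to the CPM of the 6 genes in the 4 groups, 24 pairs in all, of which chance alone marks about 1 in 20. It marked 2 values. Selp stood at 0.688 CPM in I3C vehicle library T109, where the other 3 libraries were at 0.109 CPM or less. The same library had the highest endothelial marker sum of its group, 4.84 CPM, and its part in the Selp value was not tested. Icam1 stood at 459 CPM in I3C vehicle library T108, where the others were at 161 to 208 CPM, and this library had the lowest neutrophil and red cell marker sums of its group (0.546 and 0.258 CPM).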

How the results depend on the processing

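No paired analysis was possible because no replicate code occurs in more than 1 group. Of 129 alternative counts of members called, 118 stayed within 1.5 times the main count. When 10 counts were required in every library, only Vcam1 and Icam1 were tested, and 0 were called between diets with vehicle, 1 between diets with papain and 1 between papain and vehicle on the AhR-poor diet, in both cases Vcam1. With the endothelial markers as covariate, these 3 comparisons called 0, 0 and 0 members. On the I3C diet 1 member (Sele) was called with DESeq2 and 1 (Sele) at an adjusted p below 0.05, and in the interaction 1 (Sele) with DESeq2. Leaving out 1 library gave 1 to 3 members called between diets with vehicle (1 without T110, where Selp reached an adjusted p of 0.0111 by edgeR) and 0 to 1 on the I3C diet (1 without T108, Sele at an adjusted p of 0.00567).

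Directions of 7 of 753 log2 fold changes turned, none of them a called value. With the covariate, Icam2 between diets with vehicle came to -0.78, Icam1 between diets with papain to -0.24 and Sele between papain and vehicle on the AhR-poor diet to -0.14. With each library left out in turn, Icam1 ranged from -0.46 to 0.22 between diets with vehicle, from -0.33 to 0.28 between papain and vehicle on the I3C diet and from -0.0145 to 0.67 in the interaction, turning each time without T108. Ackr1 ranged from -1.81 to 0.87 between papain and vehicle on the I3C diet and turned without T109. Ackr1 between diets with vehicle, not called in the main fit, was called by DESeq2 (adjusted p = 3.91e-04), without T109 (0.00556, edgeR) and without T101 (0.00881, edgeR). Relative to the fibroblast in place of the endothelial markers, Vcam1 was higher on the AhR-poor diet (log2 ratios 0.67 with vehicle and 1.11 with papain), as was Icam2 with vehicle (0.71), where both had been lower. On the I3C diet the fibroblast sum rests mostly on Postn and Thy1. Without Flt1, Icam2 after papain turned to lower on the AhR-poor diet (-0.83). Depth limits the I3C groups, where Sele, Selp, Icam2 and Ackr1 had no more than 3 counts in any papain library.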

Other observations

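Plvap, a protein of the diaphragms of venular and capillary endothelium, rose with papain on both diets, by 2.27 on the AhR-poor diet (from a mean of 1.998 to one of 9.62 CPM) and by 3.34 on the I3C diet (0.257 to 2.67 CPM). Other venous markers did not follow it. Vwf averaged 0.801 and 0.497 CPM in the I3C vehicle and papain groups and 2.38 and 3.48 CPM in the AhR-poor groups, called between diets but not between treatments. Of the 5 lymphatic markers, edgeR and DESeq2 called 0 in the papain response on the AhR-poor diet (1 at an unadjusted p below 0.05).

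Flt1 was the 1 endothelial marker of 16 called in neither diet comparison by edgeR or DESeq2, and rose with papain on the AhR-poor diet by 1.88. On the I3C diet it was at 1.05, called by DESeq2 and not by edgeR (adjusted p = 0.0177). The neutrophil receptor gene Cxcr2 averaged 24.2 CPM in the I3C papain group and 34.3 CPM in the AhR-poor papain group, Csf3r 0.739 and 57.8 CPM and Trem1 0.575 and 52.9 CPM in the same groups.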
